A study of Hipposideros armiger and Mus musculus with 20 samples.

Results

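Interscapular brown adipose tissue (iBAT) of ICR mice kept at 10 °C was compared with the same tissue of mice kept at 30 °C, across every gene that reached 1 FPKM in at least 2 of the 4 iBAT libraries. This rule took 9003 of the 14871 genes in the expression table. The series profiled adipose tissues of the great roundleaf bat and the mouse by mRNA sequencing. Each mouse group held 1 female and 1 male library, so the comparison set 2 cold libraries (ICR mice, iBAT, 10 °C for 7 days) against 2 warm ones (ICR mice, iBAT, 30 °C for 7 days). The mice carried no stated genetic change, and their ages, the number of animals behind each library and the hour of collection are not given. No separate cultures or cohorts are named, so the p-values below measure the spread between these libraries only. FPKM is a level per transcript length and per library size.

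Brown fat burns fuel to make heat. Noradrenaline from sympathetic nerves acts on beta-adrenergic receptors of the brown adipocyte, cAMP rises, lipid droplets release fatty acids, and uncoupling protein 1 (UCP1) lets protons back across the inner mitochondrial membrane without ATP synthesis. In the cold the tissue also takes up glucose, makes new fatty acids and rebuilds its lipid stores, while near thermoneutrality the mouse needs little of this heat and the tissue stores more fat.

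The 4 libraries carried high levels of brown fat markers. In the female and male libraries the brown fat marker Cidea stood at 1263 and 1157 FPKM at 30 °C and at 1633 and 1176 FPKM at 10 °C, and the brown-fat cytochrome oxidase subunit Cox7a1 at 1423 and 1329 FPKM and at 2711 and 2578 FPKM. Both genes were also high in cold subcutaneous white fat, with Cidea at 565 and 636 FPKM and Cox7a1 at 769.7 and 1516 FPKM. They therefore do not tell the cold tissues apart. Uty, a Y-linked gene, was listed at 0 in both female libraries and at 3.88 and 3.76 FPKM in the male ones, as the labels say. The steps between the lowest FPKM values gave relative depths of 0.96 to 1.035 against the warm female library. The 10 genes of highest mean level were mt-Co2, mt-Nd2, Atp5b, Hba-a2, Gpd1, Ucp1, Thrsp, Cox7a1, Cox6b1 and Gpx3, and the mitochondrial transcript mt-Co2 alone held 17.0% and 16.8% of summed FPKM in the warm libraries and 21.3% in each cold one. The median gene was 0.34 lower in the cold on the deposited log2 scale. Libraries were therefore scaled by their median ratio, after which the median log2 change of the 9003 genes was 0.00.

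Cold brown fat differed from warm brown fat in 974 of the 9003 genes (10.8%), with 621 higher (6.90%) and 353 lower (3.92%) at a Benjamini-Hochberg adjusted p under 0.05 in limma. Among called genes, 89 rose at least 4-fold and 29 at least 8-fold, while 17 fell at least 4-fold and 5 at least 8-fold. The counts at 4-fold were 50 higher and 35 lower on the deposited scale, 62 and 27 with the sum, and 52 and 12 with quantiles, scalings that are described below. At an unadjusted p under 0.05, 1679 genes were higher and 1292 lower. All changes are differences of log2(scaled FPKM + 1) with their standard errors, which understate the change of genes near or below 1 FPKM, while the levels printed are FPKM as deposited. An exact permutation test of 2 libraries against 2 cannot go below a two-sided p of 0.333, so calls rest on the spread that limma pools across genes and over 8 mouse libraries (the 4 of iBAT and 4 of subcutaneous white fat). With 2 libraries a group, a gene that was not called is not shown to be unchanged.

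The balance of rises and falls depended on the scale. On the deposited scale, 280 genes were called higher and 1083 lower, and scaling to the sum without the 10 highest genes gave 314 and 823, whereas quantile normalization gave 298 and 179. The share of calls that were higher was 63.8% with the main scaling, 20.5% as deposited, 27.6% with the sum and 62.5% with quantiles. Over these 4 scalings 227 genes were called higher every time and 155 lower every time, and no gene called in the main fit changed sign. Leaving out any 1 of the 4 iBAT libraries left far fewer calls. In those fits 1 library stood for a group and was assumed to vary like the others, and the cause of the drop was not tested. Of the 122 called genes named here, 6 to 22 stayed called in those 4 fits, and 105 did on the deposited scale and 67 with quantiles, none with another sign. Leaving out a subcutaneous library gave 572 (warm female), 593 (warm male), 1608 (cold female) and 1599 (cold male).

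The change was compared between sexes, with 1 library of each per group and so no test. All 974 called genes changed in the same direction in the female pair and the male pair, and 78.4% of the 9003 genes did. Calls were made from these same libraries and favour genes with little spread inside a group. The agreement of called genes between the sexes is therefore not a separate check. Across genes, which are not independent replicates, the female and male changes had a Pearson r of 0.70, and the scatter of female against male change shows the called genes along the diagonal. Genes of muscle and blood, such as Ckm and Hba-a2, lie off it.

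**Figure D1:**
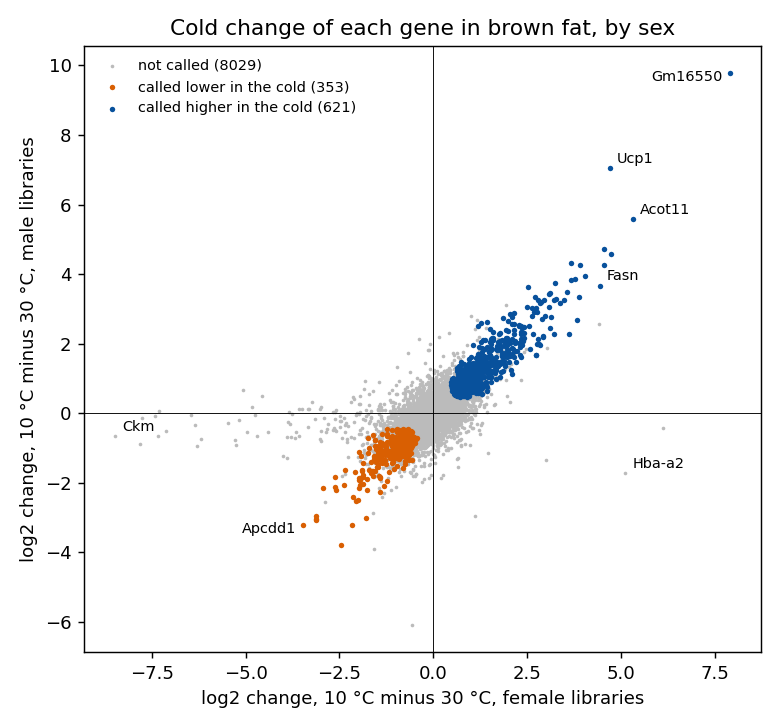
Each point is 1 of the 9003 genes, with its log2 change (10 °C minus 30 °C) in the female libraries on the x axis and in the male libraries on the y axis; blue marks the 621 genes called higher, orange the 353 called lower. Ucp1 sits at 4.70 and 7.04, while Hba-a2 sits at 5.11 in the females and -1.73 in the males.

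Heat production genes came first. Of 30 genes listed as thermogenic or marking brown fat identity, 7 rose, beside 6.90% of all genes called higher. The 7 were Ucp1, Acot11, Clstn3, Dio2, Bmp8b, Otop1 and Letmd1. None fell and 23 were not called, with a median change of 0.64 against 0.00 for all genes. Ucp1, the uncoupler itself, was at 192 FPKM in the warm female and 49.9 FPKM in the warm male, and at 3688 and 5119 FPKM in the cold female and male. The groups lay far apart, and the log2 change was 5.87 ± 0.69 (adjusted p = 0.010), the largest of any called gene above 10 FPKM other than the predicted gene Gm16550. Gm16550 was listed at 0 in both warm libraries and at 166 and 579 FPKM at 10 °C (called, adjusted p = 0.0403), and was named after its values were seen. For Ucp1, leaving out 1 iBAT library at a time gave 4.97 to 6.77, and each time the change was no longer called. As a ratio, the warm pair of Ucp1 values differed more from each other than the cold pair did.

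Acot11, an acyl-CoA thioesterase first described as a gene of cold-exposed brown fat, went from 6.19 and 6.02 FPKM in the warm libraries to 208 and 250 FPKM in the cold ones, female first here and below. Its log2 change of 5.45 ± 0.22 (adjusted p = 0.000609) came with almost no spread inside either group. Dio2, the deiodinase that makes active thyroid hormone inside the brown adipocyte, was under 1 FPKM in both warm libraries, at 0.428 and 0.261, and at 9.91 and 7.06 FPKM at 10 °C (3.27 ± 0.27, adjusted p = 0.00494). Clstn3, whose locus also encodes an adipocyte lipid droplet protein, rose from 16.7 and 18.0 to 144 and 136 FPKM (3.36 ± 0.55, adjusted p = 0.0211). The proton channel gene Otop1 rose from 17.0 and 28.6 to 91.6 and 87.9 FPKM (2.39 ± 0.38), and Letmd1, a mitochondrial protein needed for brown fat heat, from 107 and 89.0 to 268 and 286 FPKM (1.92 ± 0.31). In all of these the cold and warm libraries did not overlap in FPKM as deposited, which held for 75.5% of all 9003 genes. On that scale the median gene was 0.34 lower in the cold (log2), so the share includes this shift.

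The transcription factors that set brown fat identity were not among the calls. Ppargc1a, the coactivator of mitochondrial biogenesis, was at 3.96 and 2.44 FPKM at 30 °C and 2.52 and 4.61 FPKM at 10 °C, with overlapping groups (0.45 ± 0.41, adjusted p = 0.531). Prdm16, which directs precursors to the brown lineage, was at 1.56 and 1.34 against 1.45 and 2.98 FPKM (0.66 ± 0.37, adjusted p = 0.291). Cidea, a lipid droplet protein and brown fat marker, had a change of 0.62 ± 0.25 (adjusted p = 0.161), and Cpt1b, which brings fatty acids into mitochondria, one of 0.60 ± 0.44 (adjusted p = 0.420). Cox7a1 had a change of 1.36 ± 0.37 with separate groups but did not pass (adjusted p = 0.0704). On the deposited scale the median of the 30 genes was 0.27, with 7 called higher and 1 lower.

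**Figure D2:**
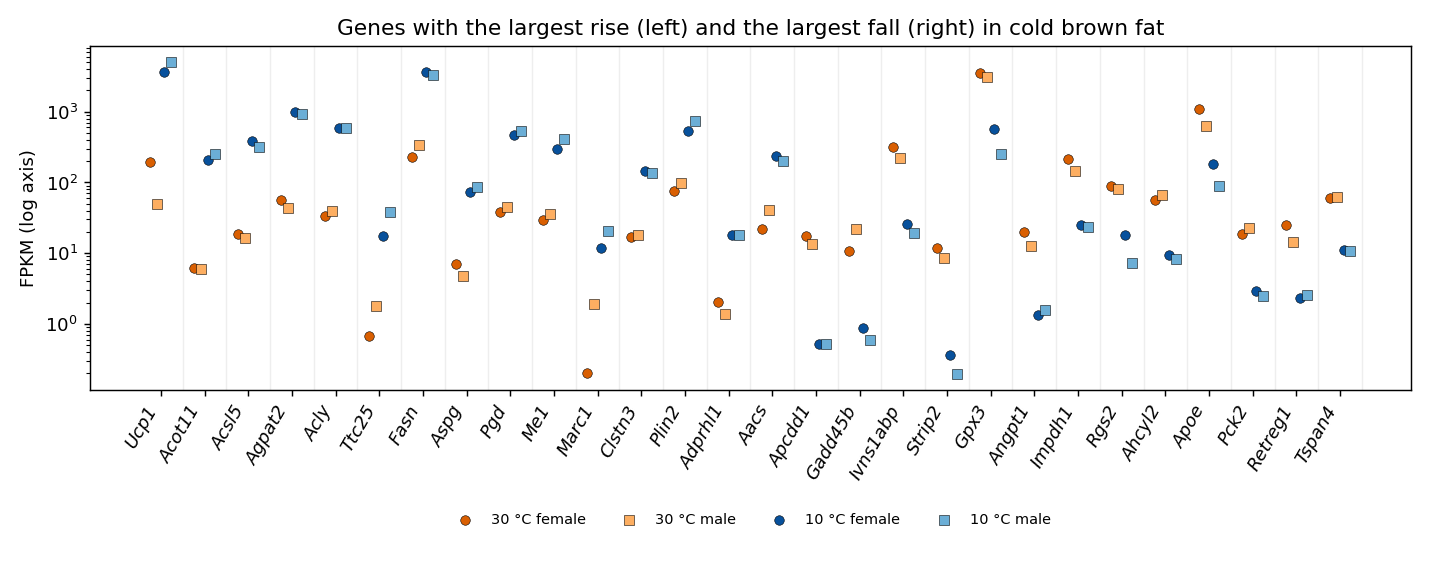
FPKM on a log axis in each of the 4 iBAT libraries for the 15 called genes with the largest rise (left, Ucp1 to Aacs) and for 13 of the 15 with the largest fall (right, Apcdd1 to Tspan4), among genes of at least 10 FPKM in the higher group, leaving out clone-named genes. Orange marks are 30 °C and blue marks 10 °C, circles female and squares male; in every one of the 28 genes the warm and cold marks separate.

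Adrenergic signalling genes changed in both directions. Of 28 listed genes of the receptors and the cAMP pathway, 4 rose and 2 fell, beside 10.8% of all genes called. On the deposited scale 1 rose and 3 fell, with the sum 2 and 3, and with quantiles 1 and 2. The median change was 0.15, which was -0.26 on the deposited scale, -0.16 with the sum and -0.02 with quantiles. Adrb1, the beta-1 receptor, rose from 5.15 and 4.05 to 7.94 and 7.26 FPKM (1.01 ± 0.18, adjusted p = 0.026). Adrb3, the main beta receptor of adipocytes, was at 44.5 and 43.0 against 47.2 and 32.2 FPKM and was not called (0.25 ± 0.45, adjusted p = 0.779). Rgs2, a brake on G protein signalling, fell from 89.0 and 81.8 to 18.3 and 7.18 FPKM (-2.40 ± 0.46, adjusted p = 0.0305).

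Among the other genes of this list, Gnas, which encodes the stimulatory G protein alpha subunit, rose from 606 and 464 to 972 and 966 FPKM (1.29 ± 0.30, adjusted p = 0.049). Adcy10, the soluble adenylyl cyclase, was under 0.1 FPKM in both warm libraries and at 2.08 and 4.04 FPKM at 10 °C (2.30 ± 0.26). Pde4a, a phosphodiesterase that degrades cAMP, rose by 1.03 ± 0.24 (adjusted p = 0.0471). The kinase subunits Prkaca, Prkacb, Prkar1a, Prkar2a and Prkar2b were not called, with changes between 0.01 and 0.59.

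The creatine cycle is another proposed heat source of fat. It was listed together with alternative heat cycles, so some of the 8 genes lie outside creatine metabolism. None of the 8 rose and 1 fell, beside 10.8% of all genes called. The fall was Slc6a8, the creatine importer, which went from 17.3 and 14.8 to 2.97 and 2.84 FPKM (-1.82 ± 0.17, adjusted p = 0.00579). Both cold libraries sat well under both warm ones. Ckmt2, a mitochondrial creatine kinase also made by muscle, was at 21.7 and 16.7 FPKM at 30 °C, was listed at 0 in the cold female and stood at 18.3 FPKM in the cold male. Ckb, the cytosolic kinase, was at 36.6 and 11.6 against 16.6 and 11.6 FPKM and was not called.

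Among 18 secreted factors of fat, 4 rose and none fell, beside 6.90% of all genes called higher. The list's median of 0.12 was -0.17 as deposited and -0.10 with the sum. On the deposited scale 2 were called higher and 4 lower, with the sum 2 and 2, and with quantiles 2 higher, so the direction of the list depended on the scale. Serpina12, the adipokine vaspin, went from 0.104 and 0.0619 to 8.44 and 7.32 FPKM (3.52 ± 0.29, adjusted p = 0.0054). Bmp8b, a brown fat signal that raises sympathetic tone, went from 0.294 and 0.0342 to 6.23 and 2.47 FPKM (2.55 ± 0.40, adjusted p = 0.0199). Rbp4, the retinol carrier, rose by 1.96 ± 0.42 and the vessel peptide Apln by 1.52 ± 0.31. Leptin (Lep) was at 30.3 and 57.4 FPKM at 30 °C and at 13.6 and 15.3 FPKM at 10 °C, and adiponectin (Adipoq) at 1047 and 852 against 530.0 and 369 FPKM, and neither was called (-1.07 ± 0.89 and -0.67 ± 0.39). Angptl4, an inhibitor of lipoprotein lipase, was at 431 and 456 against 42.0 and 58.6 FPKM, and it missed the threshold (-2.72 ± 0.84, adjusted p = 0.094). Fgf21, a hormone of energy use, stayed below 1 FPKM in all 4 libraries and was not a member.

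Fatty acid synthesis held the highest share of calls of any list. Of 23 measured genes of fatty acid synthesis and NADPH supply, 16 rose and none fell, against 6.90% of all genes called higher, and the median change was 1.98. Together the 23 genes held 0.847% and 0.898% of summed FPKM in the warm libraries and 4.32% and 4.29% in the cold ones. The count was 14 as deposited, 11 with quantiles and 14 with the sum. The pathway turns citrate into acetyl-CoA, malonyl-CoA and then palmitate, and draws its reducing power from NADPH.

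Slc25a1, the carrier that exports citrate from mitochondria, rose from 101 and 119 to 631 and 750.4 FPKM (3.06 ± 0.38, adjusted p = 0.0111). Acly, which splits the exported citrate, was at 33.8 and 39.2 FPKM at 30 °C and 593 and 581 FPKM at 10 °C (4.40 ± 0.30, adjusted p = 0.00343). Acaca, the acetyl-CoA carboxylase of synthesis, rose from 35.7 and 50.9 to 252 and 190 FPKM (2.75 ± 0.38), and Acacb, its mitochondrial isozyme, from 52.1 and 63.4 to 158 and 153 FPKM (1.83 ± 0.28). Each step from the carrier to malonyl-CoA thus had higher RNA in both cold libraries than in either warm one. Fasn, the synthase itself, was at 226 and 340 FPKM at 30 °C and at 3606 and 3294 FPKM at 10 °C (4.05 ± 0.58, adjusted p = 0.0152), which in the cold female was near the level of Ucp1 per length. Thrsp, a regulator of lipogenesis, rose from 702 and 662 to 3876 and 3280 FPKM (2.81 ± 0.53, adjusted p = 0.0296).

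The NADPH makers changed with them. Me1, the cytosolic malic enzyme, rose from 29.1 and 36.3 to 299 and 414 FPKM (3.82 ± 0.46). Pgd, the second dehydrogenase of the pentose phosphate pathway, rose from 38.0 and 44.4 to 465 and 532 FPKM (3.99 ± 0.31), while G6pdx, the first, rose from 38.4 and 33.6 to 115 and 135 FPKM (2.19 ± 0.31). The sugar-rearranging enzymes Tkt and Taldo1 rose by 2.09 ± 0.24 and 2.14 ± 0.23. Of the regulators, Srebf1, the transcription factor SREBP-1, rose from 14.2 and 13.8 to 49.3 and 37.7 FPKM (1.98 ± 0.16, adjusted p = 0.00467), and Mlxipl, which encodes ChREBP, was at 40.2 and 35.3 against 68.9 and 62.5 FPKM and did not pass (1.20 ± 0.38, adjusted p = 0.1). The elongation enzymes Hsd17b12, Elovl5 and Tecr rose by 2.42, 1.65 and 0.74, whereas the desaturases Fads1 and Fads2 had changes of -0.63 and 0.32 and were not called.

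**Figure D3:**
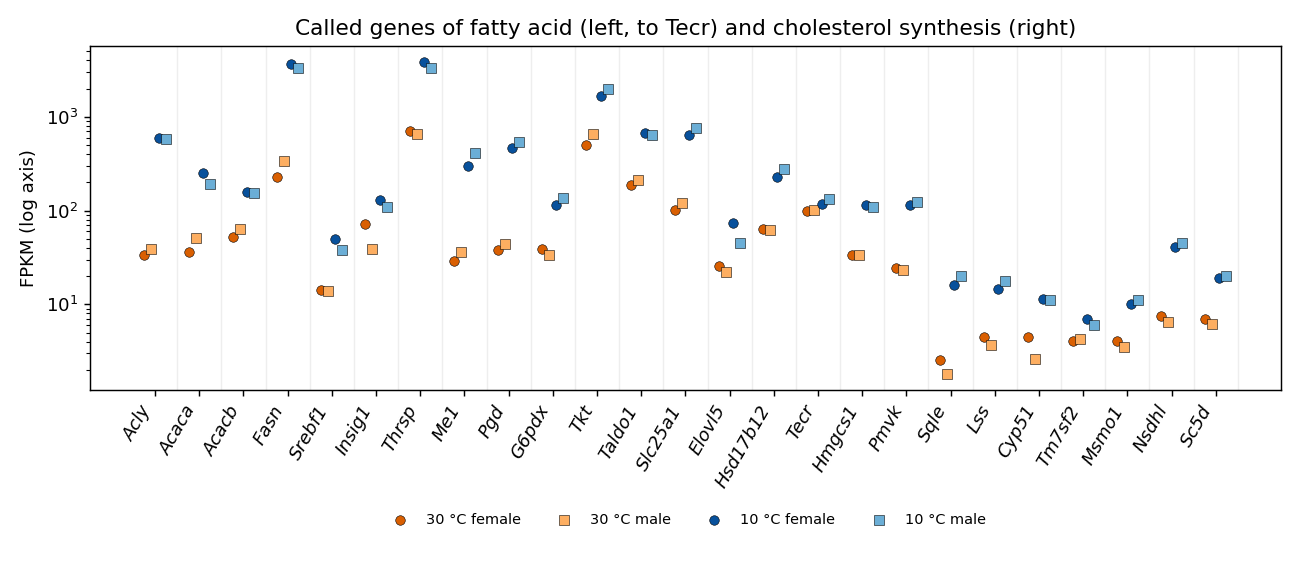
FPKM on a log axis in the 4 iBAT libraries for called genes of fatty acid synthesis and NADPH supply (left) and of cholesterol synthesis (right). Orange is 30 °C and blue 10 °C, circles female and squares male; both blue marks lie above both orange ones for each gene shown.

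Cholesterol synthesis genes rose too, at lower levels. Beside 6.90% of all genes called higher, 11 of 19 listed genes rose and none fell, with a median of 1.60. Their summed level was 250 and 211 FPKM at 30 °C and 553 and 550 FPKM at 10 °C. Hmgcs1, an early enzyme, rose from 33.5 and 33.4 to 114 and 109 FPKM (2.13 ± 0.40). Sqle, the squalene epoxidase, rose from 2.53 and 1.81 to 15.9 and 20.2 FPKM (3.03 ± 0.30, adjusted p = 0.00647). Nsdhl and Pmvk rose by 2.88 ± 0.15 and 2.71 ± 0.24. Fdft1, the squalene synthase, stood apart with 50.7 and 60.3 FPKM at 30 °C and 23.5 and 20.4 FPKM at 10 °C, and was not called (-0.89 ± 0.28, adjusted p = 0.0995). The count was 8 higher and 1 lower as deposited, 9 higher with quantiles and 9 higher with the sum. Aacs, which feeds the ketone body acetoacetate into lipid synthesis, rose from 21.9 and 41.0 to 238 and 202 FPKM (3.25 ± 0.49).

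Triglyceride assembly followed with 5 of 17 genes higher and none lower, beside 6.90% of all genes called higher. The median was 0.96. As deposited 4 were called higher and 1 lower, with the sum 3 higher and with quantiles 2 higher, at medians of 0.54 to 0.64. Gpd1, which makes glycerol 3-phosphate, rose from 659 and 596 to 4524 and 4334 FPKM (3.24 ± 0.54, adjusted p = 0.0223) and was among the 10 most abundant transcripts. Agpat2, which adds the second fatty acid, rose from 55.9 and 44.2 to 981 and 914 FPKM (4.65 ± 0.38, adjusted p = 0.00494). Gpam, Lpin2 and Mogat1 rose by 1.76, 0.76 and 2.20, and the final enzyme Dgat1 was at 54.0 and 50.2 against 77.5 and 75.1 FPKM without passing (0.96 ± 0.38, adjusted p = 0.156). The summed level of this list was 1151 and 1105 FPKM at 30 °C and 6207 and 5964 FPKM at 10 °C, most of it Gpd1.

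Fatty acid activation and droplet genes were mixed. Acsl5, an acyl-CoA synthetase, rose from 19.0 and 16.6 to 387 and 318 FPKM (4.65 ± 0.15, adjusted p = 0.000309), the smallest adjusted p of any gene in a list shown here. Acsl3 rose by 1.59 ± 0.21, Them4 by 1.11 ± 0.24, and Acsm3, a medium-chain synthetase, fell from 81.1 and 58.6 to 20.8 and 20.1 FPKM (-1.30 ± 0.15). The uptake genes Cd36 and Lpl were not called, at 308 and 381 against 233 and 239.7 FPKM for Cd36 and at 586 and 593 against 472 and 353 FPKM for Lpl. Of 16 droplet and lipolysis genes, Plin2 and G0s2 rose and Hilpda fell, beside 10.8% of all genes called. Plin2, a droplet coat protein, went from 75.8 and 98.3 to 539 and 736 FPKM (3.27 ± 0.36), and G0s2, the inhibitor of the lipase ATGL, from 50.6 and 38.8 to 460 and 147 FPKM (2.95 ± 0.59, adjusted p = 0.0343). Pnpla2, which encodes ATGL, and Lipe, the hormone-sensitive lipase, were not called (-0.15 ± 0.47 and 0.78 ± 0.47).

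Glycolysis carried 8 rises and 1 fall among 15 genes, beside 6.90% of all genes called higher and 3.92% lower. The median was 1.11. Hk2, the insulin-responsive hexokinase, rose from 20.6 and 20.4 to 138 and 108 FPKM (2.94 ± 0.52). Pfkp and Pfkl, subunits of phosphofructokinase, rose by 2.84 ± 0.26 and 2.45 ± 0.23, and Eno1, the enolase, rose from 65.9 and 73.7 to 248 FPKM in each cold library (2.24 ± 0.15, adjusted p = 0.00282). Gapdh and Aldoa rose by 1.85 and 1.58, though Gapdh has many processed pseudogenes that reads can be split with, so its value is uncertain. Slc2a4, the insulin-responsive glucose transporter GLUT4, was at 102 and 94.7 against 202 and 172 FPKM and did not pass (1.34 ± 0.55, adjusted p = 0.169), and Slc2a3 fell while under 1.3 FPKM throughout. The count higher was 6 as deposited, 5 with quantiles and 7 with the sum.

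Of 15 glycogen genes, 4 rose and none fell, beside 6.90% of all genes called higher. The list's median of 0.24 was -0.15 as deposited and -0.06 with the sum. With quantiles 1 was called higher, and as deposited 4 were called higher and 2 lower. The glycogen-targeting subunits of protein phosphatase 1 rose, Ppp1r3b from 28.3 and 20.3 to 184 and 87.8 FPKM (2.78 ± 0.51) and Ppp1r3c from 16.0 and 14.5 to 83.2 and 45.8 FPKM (2.37 ± 0.38). Pygl, a phosphorylase that breaks glycogen, rose from 71.1 and 106 to 367 and 359 FPKM (2.47 ± 0.35), while its isozyme Pygb was at 55.7 and 59.1 against 21.3 and 18.5 FPKM without a call (-1.08 ± 0.35, adjusted p = 0.1). Among 22 insulin and mTOR genes, 1 was called, a lower share than the 10.8% of all genes called. That gene, Mtor, the growth kinase, went from 12.6 and 16.8 to 36.4 and 51.9 FPKM (1.93 ± 0.33, adjusted p = 0.0244).

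Pyruvate dehydrogenase, the gate from glucose to mitochondrial oxidation, had higher subunit RNA in the cold. Of 26 genes of pyruvate dehydrogenase and the TCA cycle, 7 rose and none fell, beside 6.90% of all genes called higher. Of the 7, 6 belong to pyruvate dehydrogenase or its phosphatase. Pdhb rose from 127 and 106 to 413 and 429.9 FPKM (2.27 ± 0.24, adjusted p = 0.00748), Pdha1 from 498 and 509.7 to 999 and 884 FPKM (1.32 ± 0.24), and Pdhx by 1.78 ± 0.32. Dlat and Dld, the other core subunits, rose by 1.64 and 1.38, and Pdp2, the phosphatase that switches the complex on, by 1.31. Dlst, of the 2-oxoglutarate complex, was the remaining call. Pdk4, the kinase that switches the complex off, was at 590.4 and 725 FPKM at 30 °C and at 298 and 606 FPKM at 10 °C, with no call (-0.20 ± 0.89). Cs, the citrate synthase that opens the TCA cycle, was not called (0.61), and Idh2 was at 427 and 387 against 132 and 115 FPKM (-1.29 ± 0.42, adjusted p = 0.102). With the deposited scale or the sum, 5 genes of this list were called higher and 2 lower, and with quantiles 1 was called higher.

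Oxidation and respiration genes were high in all 4 libraries and were not called. None of 25 fatty acid oxidation genes, 24 nuclear complex I genes, 14 genes of complexes III and IV with cytochrome c, 12 ATP synthase genes or 2 mitochondrial transcripts passed, and their medians were 0.60, 0.46, 0.35, 0.26 and 0.77. On the deposited scale the same medians were 0.18, 0.04, -0.04, -0.16 and 0.35, and with quantiles the mitochondrial transcripts, complexes III and IV and ATP synthase were all at or below 0. So no direction is given for these groups. Summed complex I FPKM was 7532 and 7635 in the warm and 7447 and 7189 in the cold. Hadha, the trifunctional protein of beta oxidation, came nearest to a call at 348 and 379 against 764 and 775 FPKM (1.50 ± 0.36, adjusted p = 0.053). When only the 4 iBAT libraries were fitted, 9 oxidation genes were called higher and 1 lower, and 8 complex I genes higher. With sex as a block, 5 oxidation genes, 3 of complexes III and IV and 1 of ATP synthase were called higher.

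Other mitochondrial lists held calls, beside 6.90% of all genes called higher and 3.92% called lower. Of 56 mitochondrial ribosome genes, 17 rose and none fell, the largest being Mrpl20 from 35.7 and 31.8 to 85.6 and 93.6 FPKM (adjusted p = 0.0389). The list's median was 0.55, and 8 genes were called higher on the deposited scale, where the median was 0.13, and 8 with quantiles. Among 34 biogenesis, dynamics and carrier genes 4 rose (2 with quantiles), a count near the 10.8% of all genes called in either direction. Ucp3, a relative of Ucp1, rose from 10.2 and 15.6 to 61.3 and 57.9 FPKM (2.57 ± 0.35), and the phosphate carrier Slc25a3 rose from 50.3 and 41.8 to 81.4 and 86.3 FPKM (1.27 ± 0.17), beside Slc25a1 and the fission gene Fis1. Tfam, the mitochondrial DNA packaging factor, was at 17.5 and 11.3 against 12.9 and 19.9 FPKM, with no call.

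**Figure D4:**
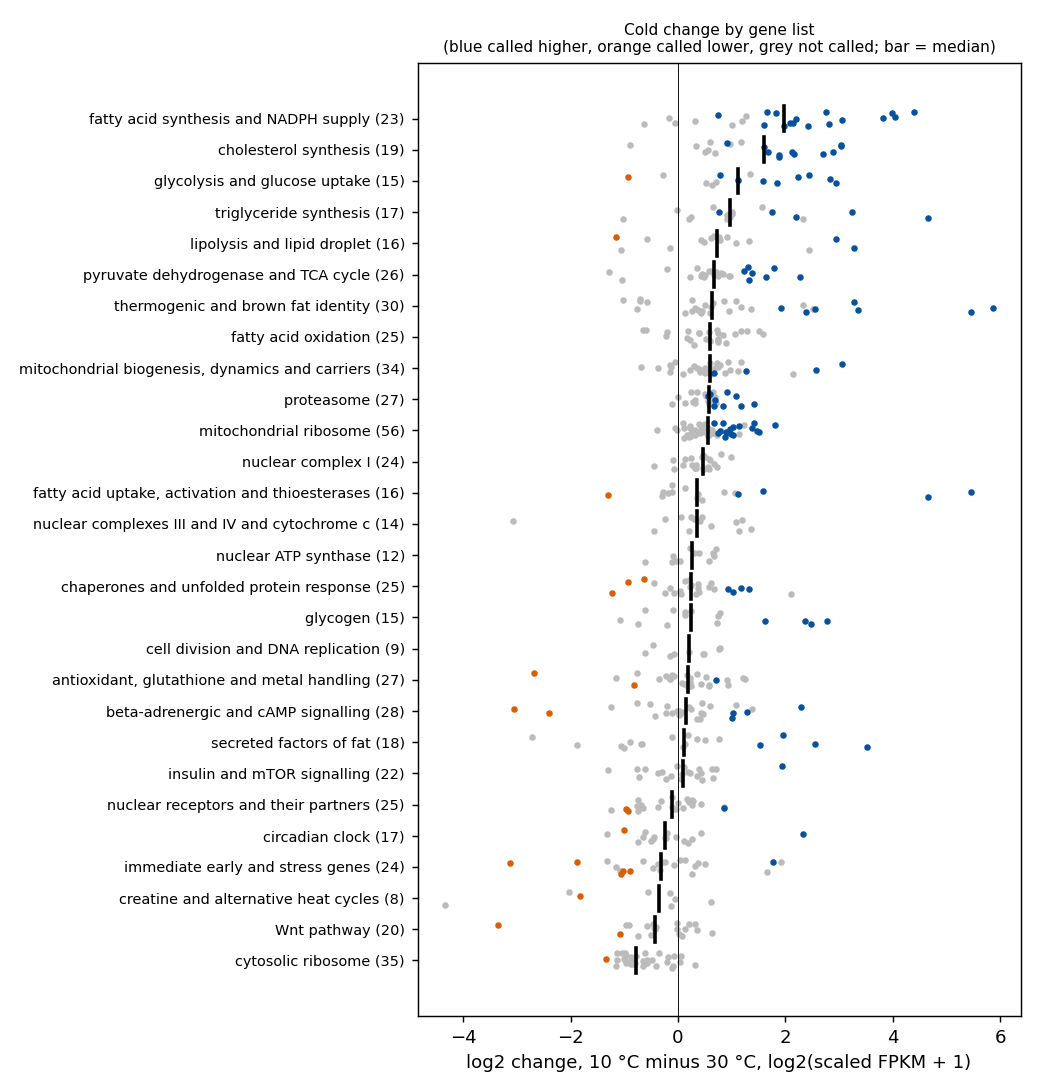
Log2 change of each member gene (10 °C minus 30 °C) on the x axis for the pathway gene lists with at least 8 members (marker lists of other cell types are not drawn), ordered by their median (black bar), with the number of members in brackets; blue points were called higher, orange lower and grey not called. Of the lists drawn, fatty acid synthesis has the highest median at 1.98 and the cytosolic ribosome the lowest at -0.79.

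Some proteasome genes rose, and most cytosolic ribosomal protein genes were not called. Of 27 proteasome genes 9 rose and none fell, beside 6.90% of all genes called higher and 3.92% lower. The proteasome median was 0.58, and 0.17 as deposited, where 3 were called. Psmc4 rose from 25.5 and 26.6 to 52.2 and 54.3 FPKM (1.42 ± 0.16, adjusted p = 0.00859), and Psmd6 from 22.1 and 22.4 to 41.7 and 35.6 FPKM (1.18 ± 0.16). Of 35 cytosolic ribosomal protein genes, 32 had lower values in the cold and the median was -0.79, but only Rps4x passed, at 67.1 and 41.1 against 17.2 and 13.2 FPKM (-1.34 ± 0.25, adjusted p = 0.0294). The deposited scale called 11 of them lower and put the median at -1.18. These genes share reads with many near-identical pseudogenes, so their single values are uncertain. The summed level was 2933 and 2302 FPKM at 30 °C and 1066 and 976 FPKM at 10 °C, with all 4 scalings giving a median of -0.79 or below.

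Stress and early-response genes held more falls than rises. Of 24 such genes 5 fell (Gadd45b, Myc, Zfp36, Btg2 and Klf6) and Dusp1 rose, beside 3.92% of all genes called lower and 6.90% higher. Gadd45b, a stress-induced gene, went from 10.8 and 22.3 to 0.867 and 0.590 FPKM (-3.13 ± 0.63, adjusted p = 0.0344), and the transcription factor gene Myc from 5.48 and 3.64 to 0.408 and 0.399 FPKM (-1.89 ± 0.41). With quantiles or no filter none of the falls in this list was called, and with a pseudocount of 0.5 or 0.1 there were 3 and 2. Dusp1, a phosphatase of MAP kinases, rose from 8.32 and 6.14 to 18.4 and 21.4 FPKM (1.77 ± 0.33). Of 25 genes listed for chaperones and the unfolded protein response, including Cirbp, 4 rose and 3 fell, beside 10.8% of all genes called. The rises included Hsph1 (1.32 ± 0.20), Hspa4 (1.17 ± 0.17) and Atf4 (0.94 ± 0.17). The falls were Xbp1, Pdia4 and Cirbp, the cold-inducible RNA-binding protein, which went from 25.5 and 21.5 to 5.03 and 9.76 FPKM (-1.23 ± 0.29, adjusted p = 0.0499). None of these falls was called with quantiles or with a pseudocount of 0.5 or 0.1, and with no filter 1 gene of the list was called lower. The rises in this list numbered 1 as deposited and 2 with quantiles or the sum, and its median of 0.25 was -0.14 as deposited and -0.05 with the sum.

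The largest falls among well-expressed genes came from several functions. Apcdd1, an inhibitor of Wnt signalling, fell from 17.4 and 13.7 to 0.518 and 0.516 FPKM (-3.35 ± 0.42, adjusted p = 0.0117). Ivns1abp, an actin-binding kelch protein, fell from 320 and 223 to 26.2 and 19.6 FPKM (-3.10 ± 0.20, adjusted p = 0.00282). Gpx3, the secreted glutathione peroxidase, was among the 10 most abundant genes of the tissue through its warm libraries, with 3541 and 3095 FPKM there and 578 and 255 FPKM at 10 °C (-2.68 ± 0.35, adjusted p = 0.0124). Apoe, the apolipoprotein, fell from 1103 and 633 to 184 and 89.0 FPKM (-2.28 ± 0.43, adjusted p = 0.0291). Impdh1, of guanine nucleotide synthesis, fell from 214 and 147 to 25.4 and 23.4 FPKM, and Angpt1, a vessel growth factor, from 20.2 and 12.5 to 1.32 and 1.59 FPKM. Pck2, the mitochondrial PEP carboxykinase, fell by 2.25, Ahcyl2 by 2.28, Retreg1, an ER-phagy receptor, by 2.23, and the tetraspanin Tspan4 by 2.02 on the log2 scale. Strip2 had a change of -3.08.

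Rises outside the listed pathways were fewer among the top 15. Aspg, an asparaginase, rose from 6.94 and 4.75 to 72.9 and 85.7 FPKM (4.00 ± 0.30, adjusted p = 0.00453). Ttc25 rose from 0.674 and 1.78 to 17.3 and 38.0 FPKM (4.08 ± 0.44), Marc1, a mitochondrial reductase, from 0.206 and 1.89 to 11.9 and 20.5 FPKM (3.61 ± 0.56), and Adprhl1 from 2.07 and 1.40 to 18.2 and 18.0 FPKM (3.26 ± 0.19). The remaining 11 of the 15 were described above with heat production or lipid synthesis and storage. All of them but Aacs are members of those lists, which were chosen with results of these data known.

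Regulators of time and transcription were called at about the share of all genes (10.8%). Of 17 clock genes, Bhlhe40 rose from 15.1 and 11.8 to 50.0 and 55.7 FPKM (2.33 ± 0.36) and Hlf fell from 4.65 and 4.83 to 1.25 and 1.61 FPKM (adjusted p = 0.0365). The cold female and male libraries disagreed in several clock outputs, with Dbp at 1.09 against 8.55 FPKM, Nr1d1 at 17.0 against 42.5 FPKM and Nr1d2 at 3.05 against 9.14 FPKM, while the warm libraries were close (7.77 and 5.49 FPKM for Dbp). Of 25 nuclear receptors and partners, Nr2f6 rose and Rarg and Ncor1 fell. Pparg, the master regulator of fat cells, was at 90.9 FPKM in each warm library and at 98.5 and 67.2 FPKM at 10 °C, and Ppara at 31.0 and 26.3 against 11.3 and 14.5 FPKM, with no call for either. Of 27 antioxidant genes, Prdx1 rose while Gpx3 and Gstm1 fell, and the list's median of 0.18 was -0.19 as deposited. None of 9 cell division genes was called.

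Several connective tissue genes fell. Of 32 matrix genes, 4 fell (Tnc, Dcn, Mmp2 and Timp3) and Loxl1 rose, with a median of -0.31. Over all 9003 genes, 3.92% were called lower and 10.8% in either direction. The matrix falls numbered 7 as deposited, 6 with the sum and 2 with quantiles. Dcn, the collagen-binding decorin, fell from 128 and 139.8 to 37.0 and 40.4 FPKM (-1.35 ± 0.18, adjusted p = 0.0134), and Mmp2, a gelatinase, from 25.1 and 21.2 to 8.37 and 6.80 FPKM (-1.13 ± 0.25). Of 19 fibroblast and progenitor markers 3 fell, namely Dcn, Pi16 and Cd34, and 17 had values below 0, with a median of -0.56. As deposited 6 fell, with the sum 5 and with quantiles 1. Their summed level was 1133 and 1370 FPKM at 30 °C and 396 and 351 FPKM at 10 °C, with Gsn the largest part. The marker list shares Dcn, Lum and Col1a1 with the matrix list, and its part in the matrix falls was not tested. In bulk tissue, fewer cells of a type and less RNA per cell cannot be told apart.

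Other cell types were present at different levels. Of 19 endothelial markers, Cldn5 and Plvap fell and Eng rose, and the median was -0.03 (-0.36 as deposited, with 4 lower and none higher). All 9 macrophage members had values below 0, with Csf1r called lower from 9.62 and 8.87 to 4.29 and 4.00 FPKM (-0.65 ± 0.14, adjusted p = 0.0407). Of 20 Wnt genes Apcdd1 and Fzd5 fell, and of 12 interferon response genes Psmb9 and Tap1, which lie beside each other, fell. Over all 9003 genes 10.8% were called in either direction, and the Wnt and macrophage counts were near that share. No white fat, general fat, pericyte, Schwann cell or lymphocyte marker was called; the white fat list had a median of -0.91. Other scalings did call some: 3 Schwann cell and 3 white fat genes were lower as deposited, 3 and 2 with the sum, and 2 Schwann cell genes with quantiles.

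Skeletal muscle RNA was high in 3 of the 4 libraries. The 21 muscle genes summed to 2904 and 2279 FPKM in the warm libraries, 48.1 FPKM in the cold female and 1364 FPKM in the cold male. Both cold sums lay under both warm ones, with the cold female far below the other 3. Ckm, the muscle creatine kinase, read 482 and 405 FPKM at 30 °C, 0.290 FPKM in the cold female and 194 FPKM in the cold male, and Actn3 was listed at 0 in the cold female. None of the 21 was called, at changes of -0.55 to -4.58 with standard errors up to 2.86. Red cell RNA was lowest in the warm female: Hba-a2 read 82.9 FPKM in the warm female, 7041 FPKM in the warm male, and 2115 and 1621 FPKM at 10 °C. Antibody RNA was highest in the warm female, with Igkc at 167 FPKM there and 12.4, 6.96 and 3.65 FPKM in the other libraries. The fits without the cold female library or the warm female library are described above.

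**Figure D5:**
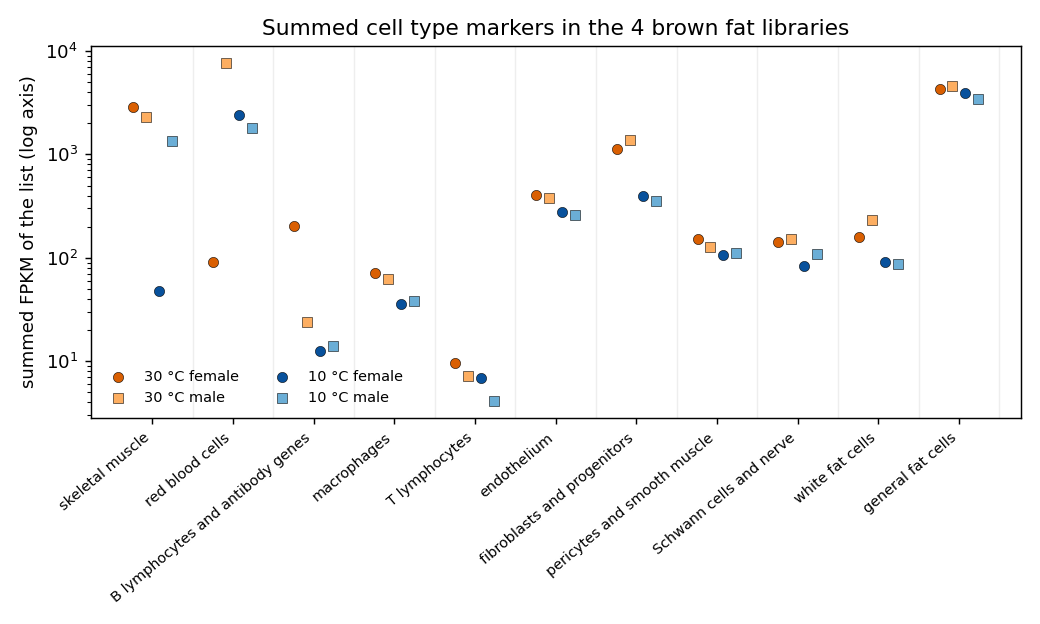
Summed FPKM (log axis) of each cell type's marker list in the 4 iBAT libraries, orange for 30 °C and blue for 10 °C, circles female and squares male. The muscle sum is 48.1 in the cold female against 1364 to 2904 elsewhere, and the red cell sum is 90.9 in the warm female against 1814 to 7696 elsewhere.

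The change in brown fat was then set against that in subcutaneous white fat of the same groups (ICR mice, 30 °C or 10 °C for 7 days, 1 female and 1 male library each), by testing the difference between the 2 changes. The labels do not say whether both tissues came from the same mice, and the fit treats the 8 libraries as independent. Of 9003 genes 3 were called (0.0333%): Acsl5 changed more in brown fat, while Cidea and Cox7a1, already abundant in warm brown fat, changed more in white fat. The names were taken after the values were seen. With sex as a block none of the 3 was called. At an unadjusted p under 0.05 there were 1804. Ucp1 changed by 5.87 in brown fat and 9.85 in white fat, a difference of -3.98 ± 0.97 that did not pass (adjusted p = 0.145), and Cpt1b had a difference of -4.85 ± 0.62 (adjusted p = 0.0861). The lipogenic genes had differences of 1.05 ± 0.42 for Acly and 0.25 ± 0.81 for Fasn (adjusted p = 0.233 and 0.879), and Dio2 one of 0.84 ± 0.38 (adjusted p = 0.275). Slc6a8 had a difference of -1.98 ± 0.24 (adjusted p = 0.0785). Without the cold female subcutaneous library, 901 genes were called, and without either warm subcutaneous library or any iBAT library none was.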

How the data were processed

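The authors deposited 1 table of gene FPKM values for 20 libraries, of which the 8 mouse libraries were used; CASAVA 1.8 is the only tool in the submitters' processing notes, and the aligner, counter, genome build and strandedness are not stated in those notes or the labels. RNA came from the RNeasy Lipid Tissue Mini Kit and Illumina libraries, per the labels' protocols. Read counts are not in hand, so depth is unknown except for relative depths: among 1354 to 1502 genes under 0.3 FPKM, 30.6% to 33.8% of values stood at ratios of whole numbers up to 5 (within 0.5%), against 3.84% to 4.19% at other depths.

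The 10689 genes reaching 1 FPKM in 2 or more of the 8 libraries were scaled by median ratios, transformed to log2(FPKM + 1) and fitted with limma 3.58.1 in R 4.3.3, with 4 group means (each tissue at each temperature), residual degrees of freedom of 4 and Benjamini-Hochberg adjustment over all 10689 genes. Of these, 9003 met the iBAT rule. Gene symbols came from GENCODE for 14723 of 14871 identifiers. The fit was tested on simulated data with known changes. Named genes were the 15 largest rises and 15 largest falls among calls with the same sign in both sexes and at least 10 FPKM in the higher group (no clone-named genes or pseudogenes), the 10 most abundant genes, a set of brown fat genes, and members of 43 gene lists. The members and lists were chosen with earlier results of these data known. Alternatives changed the scaling, pseudocount, filter, model and libraries. The samples share sex and no replicate number. Promoter sequences were not used here. Some members that these rules name are not reported here.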

Additional observations from a re-analysis of the deposited data

Results flagged for a closer look

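The cold change differed between brown and subcutaneous white fat for 3 genes in the test of the difference itself. With sex as a block in the fit, 0 genes were called, so all 3 calls were lost. Acsl5, an acyl-CoA synthetase, changed by 4.65 ± 0.15 in brown fat and by 1.76 ± 0.15 in white fat, a difference of 2.90 ± 0.21 (adjusted p = 0.0277, limma). Its white fat levels were 31.4 and 29.0 FPKM at 30 °C and 91.9 and 64.9 FPKM at 10 °C, female first. Cidea, a brown fat marker, was at 10.9 and 15.0 FPKM in warm white fat and at 565 and 636 FPKM in cold white fat, so that its difference was -5.23 ± 0.35 (adjusted p = 0.0277). Cox7a1, the brown-fat cytochrome oxidase subunit, was at 5.80 and 6.55 FPKM in warm and at 769.7 and 1516 FPKM in cold white fat, with a difference of -6.23 ± 0.52 (adjusted p = 0.0381). Cidea and Cox7a1 did not pass the test of the cold change within brown fat.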

How the results depend on the processing

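Calls in brown fat numbered 974 (621 higher, 353 lower) in the main analysis. They stayed within 1.5 times of this, in total and in each direction, with no filter, a 5 FPKM filter or the iBAT filter in the fit. The same held with the block of sex, a trended robust variance, and a pseudocount of 0.5 or 0.1. The exceptions were the settings that follow, and the cause was not tested. Counts moved to 280 higher and 1083 lower without scaling, 298, 179 and 477 in all with quantiles, 314 and 823 with the sum, 1135, 658 and 1793 in all with only the iBAT libraries. Leaving out 1 library at a time gave 9 to 1608 calls, 8 to 991 higher and 1 to 619 lower. The labels share sex across groups and no replicate number, so sex served as the replicate block, which gave 1190 calls, 738 higher and 452 lower.

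The depot difference had 3 calls (1 higher, 2 lower). It had 0 under the sex block, 12 with the iBAT filter, 10 with quantiles, 5 with the sum, 2 with trend and robust or a pseudocount of 0.1, and 1 with no filter. Leaving out 1 library gave 0 to 901 calls, 0 to 374 higher and 0 to 527 lower. Of the 122 called genes named, none changed sign in any of the 19 settings; 67 stayed called with quantiles, 87 with a pseudocount of 0.1, 96 with no filter and 116 under the block. Of 49 uncalled ones, 19 took another sign in some setting.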
